A study of Mus musculus with 6 samples.

Results

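Phox2a, Isl1, Tbx2, Tbx3, Tbx20, Ebf1, Nkx6-1, Nkx2-2 and Nkx2-9 are transcription factor genes of branchiomotor neurons and of the progenitors that produce them. The 9 genes were taken by name, through the probe sets that the array's annotation assigned to exactly 1 of these symbols. They comprised 20 of the 45037 probe sets tested and 9 of the 18193 genes measured. A probe set is the group of short probes that reports 1 transcript on the array. Where a gene had several probe sets, the one of highest mean over the 6 arrays stood for the gene, and the rest are given as well.

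The samples were mouse embryos at E10.5. Fluorescent cells were sorted from hindbrains pooled over whole litters, and the tissue is labelled rhombomere 4, the segment that forms the facial branchiomotor neurons. In both groups the Hoxb1 locus carried IRES-tauGFP, which makes a fluorescent microtubule-binding reporter wherever the locus is active. No group without this reporter was measured. The labels do not say whether embryos were homozygous, so an unmodified Hoxb1 copy may have remained in either group. The control group (Hoxb1-IRES-tauGFP, n = 3 arrays) expressed normal Hox-B1 protein, while in the swap group (n = 3 arrays) another Hox protein was made from this locus. Replicates were independent and biological according to the series design, and the p-values measure the spread between such litter pools. The sort followed Hoxb1 activity and not motor neuron identity, so other cells of the segment were included. In such bulk RNA fewer cells of a type and less RNA per cell cannot be told apart.

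Branchiomotor neurons innervate the muscles of the branchial arches and leave the hindbrain through dorsal exit points, and those of the facial nerve migrate caudally out of rhombomere 4. They arise from the most ventral neural progenitors, which are marked by the NK homeobox factors Nkx2-2 and Nkx2-9 within the wider domain of Nkx6-1. Their neurons then switch on Phox2 homeobox genes, the LIM homeobox gene Isl1, the T-box genes Tbx2, Tbx3 and Tbx20, and the helix-loop-helix gene Ebf1. Because Hoxb1 sets the identity of rhombomere 4, the comparison asks whether these genes depend on which Hox protein the locus makes.

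Promoter windows were available for 7 of the 9 genes, as 8 windows in the RefSeq-based table of build GRCm38.p6. The 5 windows printed here are those of the genes with the largest gene-level differences in either direction (Phox2a and Nkx2-2), of the most used motor neuron marker (Isl1), and of the windows that held a searched motif (Nkx2-2, Nkx6-1 and Ebf1). Each gives the 250 bases before the annotated transcription start, 5′ to 3′ on the gene's strand. Capitals mark a motif match on either strand. Nkx2-2 is at chr2:147186403-147186652 (minus strand), Nkx6-1 at chr5:101664712-101664961 (minus), Phox2a at chr7:101818063-101818312 (plus), Isl1 at chr13:116309689-116309938 (minus) and the downstream of the Ebf1 windows at chr11:44619978-44620227 (plus).
Nkx2-2: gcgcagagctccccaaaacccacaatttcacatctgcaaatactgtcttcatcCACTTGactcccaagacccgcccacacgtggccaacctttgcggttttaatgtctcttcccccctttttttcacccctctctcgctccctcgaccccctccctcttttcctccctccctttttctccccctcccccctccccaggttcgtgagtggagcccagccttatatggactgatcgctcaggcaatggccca
Nkx6-1: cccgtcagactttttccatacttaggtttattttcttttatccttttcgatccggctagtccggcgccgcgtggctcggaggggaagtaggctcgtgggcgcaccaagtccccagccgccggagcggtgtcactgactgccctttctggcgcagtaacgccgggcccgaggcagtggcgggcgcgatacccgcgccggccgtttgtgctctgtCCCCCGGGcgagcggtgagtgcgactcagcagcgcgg
Phox2a: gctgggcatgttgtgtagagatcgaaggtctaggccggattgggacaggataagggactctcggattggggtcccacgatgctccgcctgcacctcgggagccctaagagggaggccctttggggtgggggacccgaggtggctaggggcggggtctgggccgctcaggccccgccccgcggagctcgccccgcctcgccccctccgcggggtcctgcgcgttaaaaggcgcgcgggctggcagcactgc
Isl1: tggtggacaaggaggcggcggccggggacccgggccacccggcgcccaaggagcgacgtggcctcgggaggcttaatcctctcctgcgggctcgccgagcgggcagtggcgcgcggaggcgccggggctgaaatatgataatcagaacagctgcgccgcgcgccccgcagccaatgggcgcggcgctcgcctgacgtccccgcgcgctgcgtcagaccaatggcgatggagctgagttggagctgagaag
Ebf1: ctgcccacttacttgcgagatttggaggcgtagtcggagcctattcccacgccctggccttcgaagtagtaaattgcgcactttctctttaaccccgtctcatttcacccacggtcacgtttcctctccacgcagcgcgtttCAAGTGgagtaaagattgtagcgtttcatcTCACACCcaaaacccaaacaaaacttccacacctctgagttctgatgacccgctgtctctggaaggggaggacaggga

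Motifs for Hox proteins and for these factors' own families were searched on both strands. The PBX-HOX motif TGATNNAT, bound by Hox proteins with their TALE partners, was in 0 of the 8 windows and in 7.68% of the 32851 mouse promoter windows. The NK2 motif CAAGTG was in 2 windows (11.6% of all), the upstream part of the Nkx2-2 window, 197 bases before the start, and the Ebf1 window, 108 bases before it. The T-box motif GGTGTGA (3.33% of all) was in the Ebf1 window, 78 bases before the start, on the opposite strand. The EBF motif CCCNNGGG (11.8% of all) was in the Nkx6-1 window, 37 bases before the start. No 2 of these 4 matches overlapped. The Isl1 and Phox2a windows held 71.2% and 70.4% G or C, against a median of 52.4% over all windows, and the Ebf1 windows held 40.0% and 52.0%.

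With a threshold of 0.05 on the adjusted p, limma called 0 of the 20 probe sets and 0 of 45037 probe sets over the whole array (0% called, smallest adjusted p 0.260). At an unadjusted p under 0.05 there were again 0 of the 20, where 4.57% of all probe sets had such a p. In this report a difference is the swap mean minus the control mean on the log2 scale, every adjusted p is limma's with Benjamini-Hochberg adjustment over all probe sets, and that of each of the 20 probe sets rounded to 1.00. At the gene level 5 of the 9 genes had a difference above 0 and 4 below 0. The gene-level median was 0.13 and the mean -0.01, beside a median of 0.01 over all genes, and over the 20 probe sets it was 0.00, beside -0.01 over all probe sets. Nkx2-2 was the 1 gene of the 9 whose swap arrays all lay on one side of the control arrays, and 8.85% of all genes had such arrays. For 7 of the 9 genes the 95% interval reached less than 2-fold in either direction, against 43.4% of all genes and 68.1% of those at or above the median level. That level, the median of all probe sets, was a log2 intensity of 6.83, or 114 intensity units, and 8 of the 9 genes lay above it, Nkx2-9 being the exception. Intensities of different probe sets cannot be ranked as transcript levels, since each has its own probes.

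**Figure D1:**
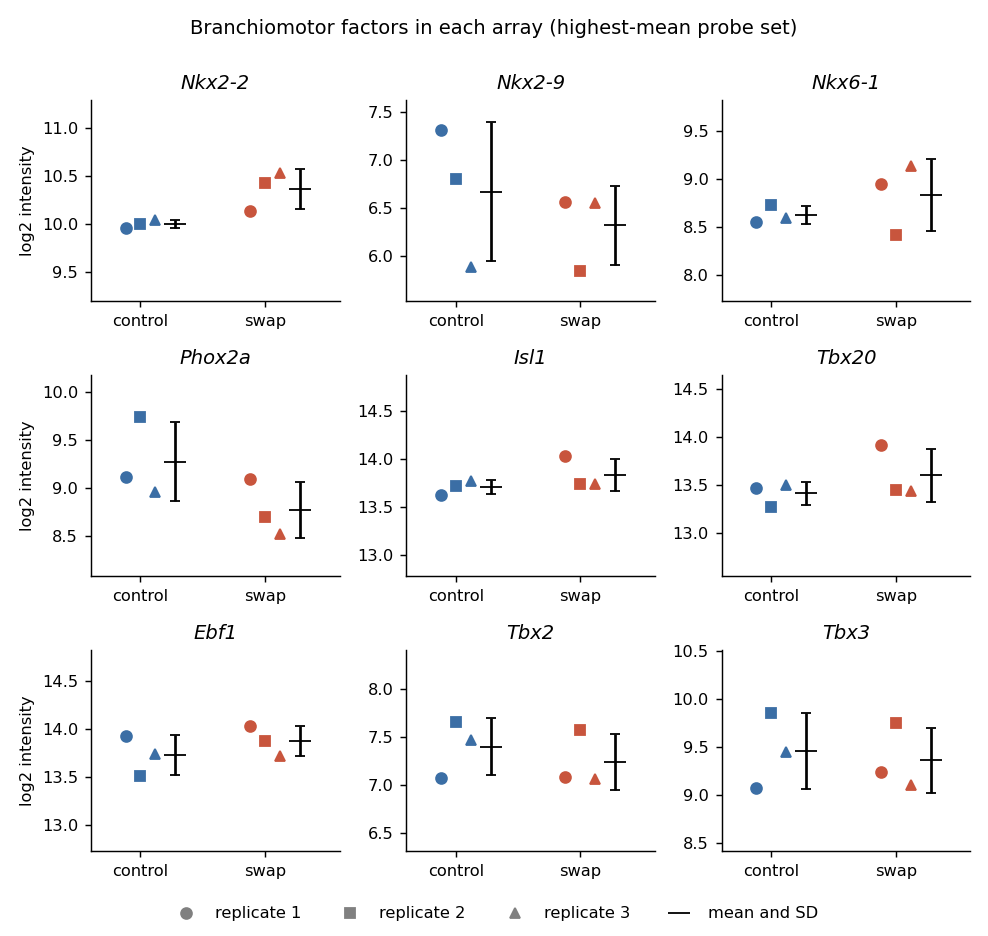
Log2 intensity (vertical axes, each spanning the same range of log2 units) of the 9 genes in the 3 control and 3 swap arrays, with symbols for the replicate number and bars for the mean and SD. Nkx2-2 is the only panel in which all swap points lie above all control points, and Phox2a has the largest gap between the means, with swap array 1 at 9.10 above control array 3 at 8.96.

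The differences of the progenitor factors did not share a sign, and none passed limma's test. Whether they differed from one another was not tested. Nkx2-2, which specifies the ventral progenitors of visceral motor and serotonergic neurons, gave log2 intensities of 9.96, 10.00 and 10.04 (control arrays 1, 2 and 3) and of 10.13, 10.42 and 10.53 (swap arrays 1, 2 and 3). Every swap array lay above every control array, and the control arrays were close together (SD 0.04, n = 3) beside the swap arrays (SD 0.20, n = 3). The means were 10.00 and 10.36, a difference of 0.36 (SE 0.22, 95% interval -0.18 to 0.90) or 1.29-fold. limma's unadjusted p was 0.149, the smallest of the 20 probe sets, and the two-sided exact permutation p was 0.1, the smallest possible with 3 against 3 arrays. The share of genes with all swap arrays higher was 4.3%.

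Nkx2-9, the related factor of the same progenitors, had the opposite sign and a wide spread. It gave 7.31, 6.80 and 5.88 (control) and 6.56, 5.84 and 6.55 (swap). The control arrays alone spanned the whole range of the swap arrays except its lowest value. The difference was -0.35 (SE 0.44, 95% interval -1.45 to 0.75), with means of 6.67 ± 0.72 and 6.32 ± 0.41 (SD, n = 3 each). It was -0.03 without control array 1 and -0.74 without control array 3. Its mean lay below the median level, where intervals were wide.

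Nkx6-1, which is needed for the migration and axon growth of branchiomotor neurons, gave 8.55, 8.73 and 8.59 (control) and 8.95, 8.42 and 9.14 (swap). Swap array 2 lay below all control arrays and the other swap arrays above them. The means were 8.63 ± 0.09 and 8.83 ± 0.37 (SD, n = 3 each), a difference of 0.21 (SE 0.27, 95% interval -0.46 to 0.87).

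Phox2a, a homeobox gene of cranial motor and noradrenergic neurons, had the largest gene-level difference of the 9 and was lower in the swap arrays without passing the test. It gave 9.12, 9.74 and 8.96 (control) and 9.10, 8.70 and 8.52 (swap). The groups overlapped, because swap array 1 lay above control array 3. The means were 9.28 ± 0.41 and 8.78 ± 0.30 (SD, n = 3 each). The difference was -0.50 (SE 0.31, 95% interval -1.27 to 0.27), a fold of 0.71 with an interval from 0.41 to 1.21, so a fall of more than 2-fold lay inside the interval. The two-sided exact permutation p was 0.2 and limma's unadjusted p was 0.162. Control array 2 held the highest value, and without it the difference was -0.27.

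Isl1, Tbx20 and Ebf1 gave strong signals in both genotypes, and their gene-level intervals excluded a change of 2-fold in either direction. Isl1, which acts early in nearly all motor neurons, gave 13.63, 13.73 and 13.77 (control) and 14.03, 13.75 and 13.74 (swap). Swap array 1 was the highest, and the other swap arrays fell inside the range of the control arrays. The difference was 0.13 (SE 0.21, 95% interval -0.40 to 0.66). The second Isl1 probe set stood lower, giving 9.71, 10.12 and 10.46 (control) and 10.22, 10.58 and 10.51 (swap). Its difference was 0.34 (SE 0.28, 95% interval -0.35 to 1.03), so a rise of 2-fold lay just inside its interval. Control array 1 was the lowest in both Isl1 probe sets. Swap array 1 was not the highest in the second, so the 2 probe sets did not rank the arrays alike.

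Tbx20, the T-box factor required for facial neuron migration, was reported by 3 probe sets that differed in sign. The brightest gave 13.47, 13.27 and 13.49 (control) and 13.92, 13.45 and 13.43 (swap), where again swap array 1 was the highest and the groups overlapped. Its difference was 0.19 (SE 0.24, 95% interval -0.41 to 0.79). The second gave 11.14, 11.12 and 11.31 (control) and 11.37, 11.14 and 10.95 (swap), with a difference of -0.04 (SE 0.23). The third, dimmer than the median level, gave 6.62, 7.09 and 6.60 (control) and 6.51, 6.39 and 6.34 (swap). Here every swap array lay below every control array, with a difference of -0.35 (SE 0.24, 95% interval -0.95 to 0.24) and a two-sided exact permutation p of 0.1. Of all probe sets 4.73% had every swap array lower. The place of each probe set in the Tbx20 transcripts is not known here, and the 3 intervals overlap one another.

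Ebf1, a helix-loop-helix factor that acts in the migration of facial branchiomotor neurons and in many other early neurons, had 5 probe sets, and the difference was above 0 in each. The brightest gave 13.93, 13.52 and 13.75 (control) and 14.04, 13.88 and 13.73 (swap), with a difference of 0.15 (SE 0.23, 95% interval -0.42 to 0.72). The second gave 10.85, 11.25 and 11.14 (control) and 11.38, 11.37 and 11.38 (swap). All of its swap arrays lay above its control arrays, by 0.30 between the means (SE 0.22, 95% interval -0.24 to 0.84, two-sided exact permutation p = 0.1), where 4.11% of all probe sets had every swap array higher. The third and the fourth differed by 0.04 and 0.35, and in both of these the groups overlapped. The 95% interval of the fourth, -0.37 to 1.07, did not exclude a rise of 2-fold. The fifth, at a mean log2 intensity of 3.17, differed by 0.49 (SE 0.45). Probe sets of 1 gene share the same RNA, so their common sign is not independent support.

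Tbx2 and Tbx3, closely related T-box repressors that also act in the branchial arches and the heart, were near equal in the 2 genotypes and varied between arrays of the same genotype. Tbx2 gave 7.07, 7.65 and 7.47 (control) and 7.08, 7.57 and 7.06 (swap). The brightest Tbx3 probe set gave 9.07, 9.85 and 9.45 (control) and 9.23, 9.74 and 9.10 (swap). Both genes were highest in control array 2 and next highest in swap array 2. The differences were -0.16 for Tbx2 (SE 0.28, 95% interval -0.85 to 0.53) and -0.10 for Tbx3 (SE 0.32, 95% interval -0.88 to 0.69), smaller than the SD within the control group, which was 0.30 for Tbx2 and 0.39 for Tbx3 (n = 3 each).

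The brightest Tbx3 probe set carries the _x suffix, by which the manufacturer marks probes that may also bind other transcripts. A second probe set without that suffix, at nearly the same mean level (9.38 beside 9.41), gave 9.39, 9.54 and 9.26 (control) and 8.91, 9.98 and 9.20 (swap). Its difference was -0.03 (SE 0.34), and swap array 2 was its highest. The remaining 3 Tbx3 probe sets lay below the median level and differed by -0.25, -0.15 and -0.49, with standard errors of 0.58, 0.74 and 1.25. All 5 Tbx3 differences were below 0, and in each probe set the groups overlapped.

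**Figure D2:**
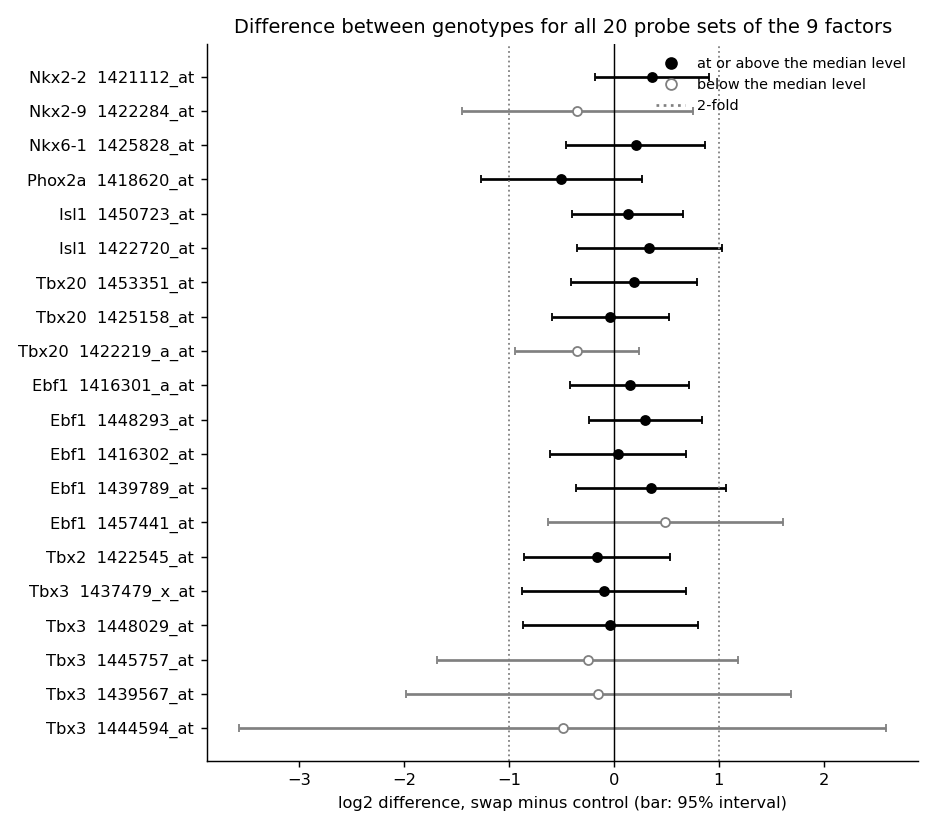
Log2 difference (swap minus control, horizontal axis) of each of the 20 probe sets with its 95% interval; filled points lie at or above the median level, open points below it, and dotted lines mark 2-fold. Every interval includes 0, and the widest belong to Tbx3 probe sets below the median level.

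Precision followed the level of the probe set. Standard errors ran from 0.21 to 0.34 in the 14 probe sets whose mean reached the median level, and 11 of these had a 95% interval within 2-fold, against 61.3% of all such probe sets. The 6 below it had standard errors from 0.24 to 1.25, and for 1 of them, the third Tbx20 probe set, the interval lay within 2-fold. The pooled SD within a genotype had a median of 0.27 over the 9 genes, from 0.13 for Isl1 to 0.59 for Nkx2-9, beside a median of 0.27 over all genes at or above the median level. Over the 20 probe sets 3 had swap and control arrays that did not overlap, 2 higher and 1 lower, where 8.83% of all probe sets did.

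**Figure D3:**
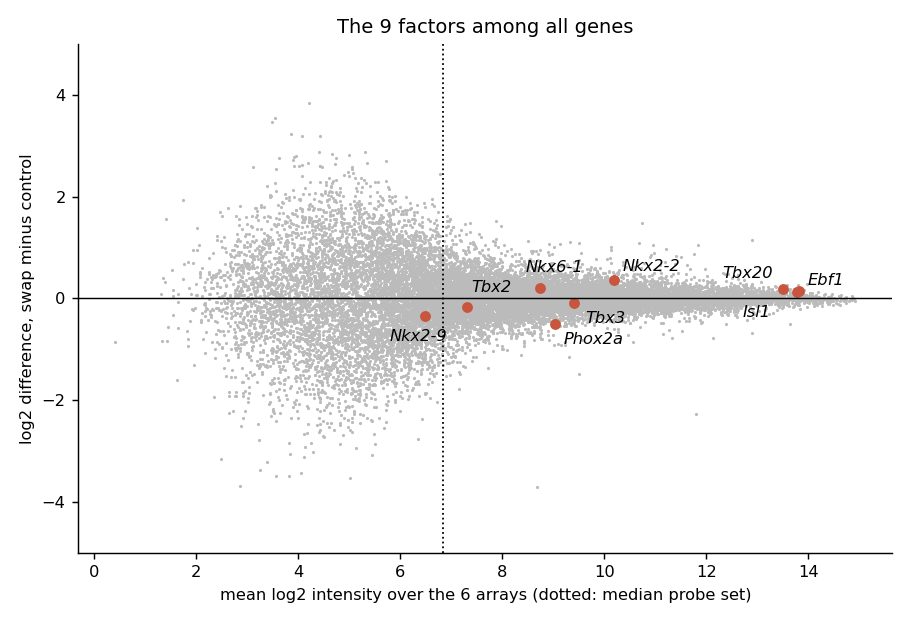
Log2 difference (swap minus control, vertical axis) against the mean log2 intensity over the 6 arrays (horizontal axis) for all 18193 genes in grey, with the 9 factors in red and the median level dotted. The 9 genes lie within the cloud at their levels, between -0.50 for Phox2a and 0.36 for Nkx2-2.

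The array in which a factor was highest differed between the genes. Isl1, Tbx20 and Ebf1 were highest in swap array 1, Phox2a, Tbx2 and Tbx3 in control array 2, Nkx2-2 and Nkx6-1 in swap array 3, and Nkx2-9 in control array 1. Swap array 1 also had the largest excess of 3′ over 5′ signal in the array's control probe sets, 2.92 for Actb and 1.93 for Gapdh on the log2 scale. The other 5 arrays ranged from 2.41 to 2.67 and from 1.23 to 1.41. Of all genes at or above the median level 21.6% were highest in swap array 1. Without swap array 1 the differences were 0.03 for Isl1, 0.03 for Tbx20 and 0.07 for Ebf1. The part of RNA quality in these values was not tested.

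Markers of other cells were followed in the same arrays, because several of these factors also act outside the hindbrain. The branchial mesenchyme list had 14 of 14 markers measured, 11 of them at or above the median level. The mean log2 intensity of the list was highest in control array 2 (8.74) and swap array 2 (8.49), the same arrays in which Tbx2 and Tbx3 were highest, and lay between 7.82 and 8.20 in the other 4 arrays. Its summed intensity ranged from 5675 to 10390 (control) and from 5922 to 8420 (swap). The macrophage list (10 of 10 measured, 5 at or above the median level) also peaked in control array 2, with summed intensities from 570 to 17619 (control) and from 2573 to 4822 (swap). By mean log2 intensity control array 2 was also the highest for the heart (6.61), otic and surface ectoderm (8.11) and pan-neuronal (12.34) lists. In those lists swap array 3 was next highest. The cranial sensory ganglia list also peaked in control array 2 (9.33), followed by control array 3 (9.29). The part of mesenchyme, macrophage or other such cells in the Tbx2, Tbx3 and Phox2a values was not tested.

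Heart markers were low, with 2 of 10 measured markers at or above the median level and summed intensities from 653 to 1398 (control) and from 638 to 1036 (swap). The brightest were Hand1 and Nppa, each at a mean log2 intensity of 6.95, and then Myl4, below the median level. They differed by 0.36, 0.08 and -0.26, and the lowest of the list was the cardiac homeobox gene Nkx2-5 at 3.47. The cranial sensory ganglia, whose neurons also make Isl1, had 8 of 11 markers measured, 7 at or above the median level, and summed intensities from 7795 to 8134 (control) and from 6728 to 7750 (swap). Of these 8 markers 1 had a difference above 0 and 7 below, 0 passed limma's test, and the list had a median of -0.15 and a mean of -0.26, beside -0.50 for Phox2a. Pou4f1, Neurod1 and Prrxl1 had the brightest probe sets of that list, with differences of -0.21, -0.09 and -0.04. Eya1, the 1 marker with a difference above 0, differed by 0.32 (SE 0.26), and Ntrk2 by -0.01 (SE 0.30). Neurog1, which starts sensory neuron formation in the ganglia, differed by -0.52 (SE 0.26), Ntrk3, the neurotrophin-3 receptor, by -0.54 (SE 0.29, and -0.32 without swap array 2), and Tlx3, below the median level, by -0.97 (SE 0.37, limma's unadjusted p = 0.0387). The part of sensory ganglion cells in the Phox2a and Isl1 values was not tested.

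Of the remaining lists, the erythroid list had 3 of 7 markers at or above the median level. Its differences were below 0 for 6 of 7 (median -0.27). The brightest were the globin genes Hbb-y, Hbb-bh1 and Hba-x, at mean log2 intensities of 14.11, 12.29 and 11.27. They differed by -0.15, -0.27 and -0.62. The globin gene Hba-a1, below the median level at 4.93, differed by -1.58 (SE 0.35, limma's unadjusted p = 0.0047). Otic and surface ectoderm markers had 6 of 8 at or above the median level, 5 with a difference above 0 and 3 below, and endothelial markers 0 of 8, with 6 above 0 and 2 below. The macrophage list had 7 differences above 0 and 3 below, and the mesenchyme list 5 and 9. The hindbrain segment list, which holds Hox genes and markers of neighbouring regions, had 8 of 10 measured, 5 above 0 and 3 below. In it Otx2, a homeobox gene of the forebrain and midbrain, was higher in every swap array than in any control array (1.02, SE 0.24, limma's unadjusted p = 0.0064). In each of these lists 0 markers passed. Neurog1, Ntrk2, Ntrk3, Tlx3, Eya1, Hba-a1 and Otx2 were singled out after their values were seen. No marker was at 0, since the deposited values are all above 0. The table holds no detection calls, so no gene could be called absent.

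**Figure D4:**
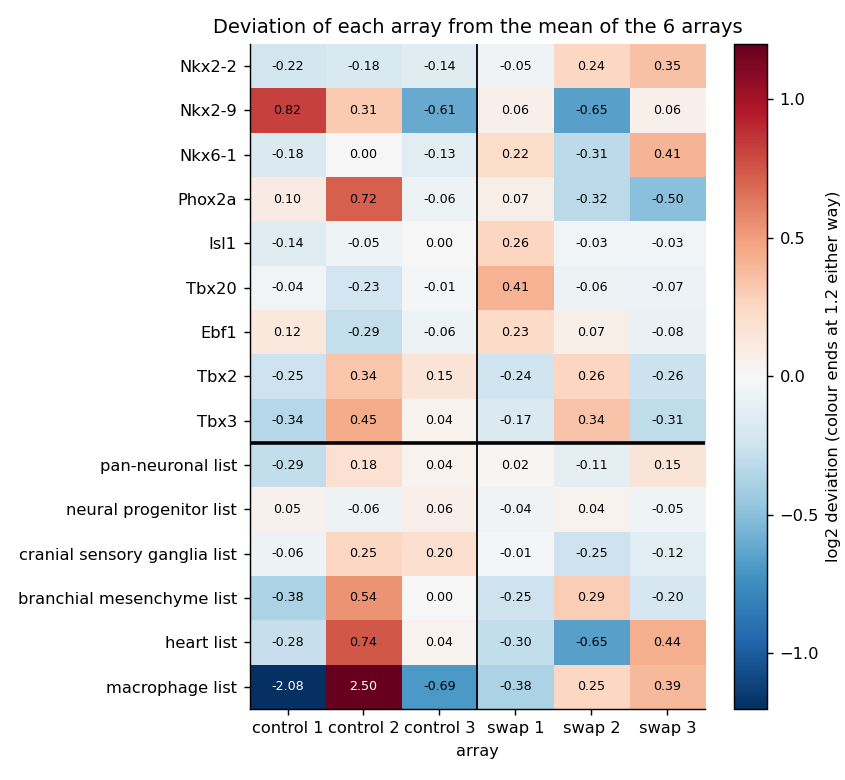
Deviation of each array's log2 value from the mean of the 6 arrays, for the 9 factors (above the line) and for the mean of 6 marker lists (below it), with control arrays on the left and swap arrays on the right. Tbx2, Tbx3 and the branchial mesenchyme list are above their means in control array 2 and swap array 2. In control array 3 Tbx2 and Tbx3 are above their means as well. Isl1, Tbx20 and Ebf1 are highest in swap array 1.

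Pan-neuronal and progenitor genes were well measured in both genotypes. All 12 pan-neuronal genes and all 11 neural progenitor genes lay at or above the median level. By genotype the mean log2 intensity of the pan-neuronal list was 12.14 ± 0.25 (control) and 12.18 ± 0.13 (swap), and that of the progenitor list 11.52 ± 0.07 and 11.48 ± 0.05 (SD, n = 3 each). Expressed relative to the pan-neuronal mean of each array, Phox2a differed by -0.54 (SE 0.34) and Nkx2-2 by 0.32 (SE 0.29), and limma again called 0 probe sets.

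Other genes of the branchiomotor programme, such as the relatives of these factors, receptors, adhesion molecules and transmitter genes, formed a list of 24. Of these 22 were measured, 11 with a difference above 0 and 11 below, 0 passed limma's test, and the median difference was -0.04 (mean 0.03) beside a median of 0.01 over all genes. The smallest unadjusted p at or above the median level belonged to the GDNF co-receptor Gfra1 (0.53, SE 0.21), the axonal adhesion molecule Cntn2 (0.58, SE 0.26) and the zinc-finger factor Gata2 (-0.79, SE 0.46). Control array 1 was high for Gata2, and without it the difference was -0.30. The other probe sets of Gfra1, both below the median level, gave -0.94 and 0.31. Those of Cntn2 gave 0.29, 0.87 and -0.43, of which only the last lay below that level. That of Gata2, above it, gave -0.72. Ebf2 and Ebf3, the relatives of Ebf1, differed by 0.10 and 0.08. Among ventral progenitor genes (11 of 12 measured, median 0.00, 0 passed) Nkx6-2, the relative of Nkx6-1, differed by 0.06 (SE 0.20). Among serotonergic genes 6 of 7 were measured, 3 with a difference above 0 and 3 below, and 0 passed. The 4 at or above the median level, Gata3, Lmx1b, Ddc and Slc18a2, differed by -0.42, 0.07, -0.16 and -0.30. The median over the 6 was -0.04, and the mean was 0.49 through Tph2 (2.02, SE 0.87) and Slc6a4 (1.74, SE 1.12), both below that level.

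The list of somatic motor neuron factors shared Isl2 with the branchiomotor list, and 7 of its 7 genes were measured. Of these 4 had a difference above 0 and 3 below, 0 passed, and 5 lay at or above the median level. Lhx4 stood between 11.84 and 12.69 in the 6 arrays, while Mnx1, the defining homeobox gene of somatic motor neurons and singled out after its values were seen, stood between 2.45 and 5.76.

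Genes whose pattern over the 6 arrays was most like that of each factor were sought among 10680 named genes at or above the median level, by Pearson's r. These values only describe the 6 arrays, whose genotype, litter pool and RNA quality all genes share. For Isl1 the nearest were Evx1, a homeobox gene of interneurons, Fdft1 and Atl1 (r = 0.99, 0.99 and 0.99). They were Kmt2e, Arhgap35 and Atad2b for Tbx20 and Ube2d1, Abcg2 and Nup205 for Ebf1. For Phox2a they were Rpp25l, Rab10 and Mgat3 (r = 0.98, 0.97 and 0.96), and for Nkx2-2 Tpp1, Serpinb6a and Miip. Nkx6-1 was followed by Nap1l2, Dennd1b and Tceanc2, Tbx2 by Map3k9, Mast3 and Mss51, and Tbx3 by Slc7a6, Pdlim5 and Lcmt1. Between 9 genes for Nkx6-1 and 78 for Ebf1 had an r above 0.95.

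Over the 6 arrays median intensities lay between 118 and 139 units. Hoxb1 itself stood between 12.55 and 12.68 (control) and between 11.78 and 12.54 (swap), a difference of -0.51 (SE 0.27). Leaving out swap array 3 made it -0.33. The place of its probe set in the altered transcript is not known here, so it does not check the labels.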

How the data were processed

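Amplified RNA of sorted cells was measured on Affymetrix arrays, per the series design, and the values deposited are linear intensities, 1 for each probe set on each array. The submitters' processing notes name the affy package. Its version, and how background and probes were handled, are not given in the sources used. These deposited intensities had a 2% trimmed mean of 500 units on every array, so they had already been scaled and were not normalized again.

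Of 45101 probe sets 64 array controls were left out. Among the rest 34945 had 1 gene symbol, 932 several and 9160 none, and genes were named from the first kind. All 20 probe sets of the 9 genes matched RefSeq by identifier and symbol. log2 was taken with no offset, and all 45037 probe sets were fitted in R 4.3.3 by limma 3.58.1, using lmFit and eBayes, with Benjamini-Hochberg adjustment over all of them and a threshold of 0.05. Single values were also compared by an exact permutation test over the 20 divisions of the arrays. Lists of other genes were described by counts and medians, with no test. Tables and promoter searches used Python 3.11.15.

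The 9 genes and all lists were chosen with earlier results of these data known. All 9 genes were named. Of the branchiomotor list the 3 with the smallest unadjusted p at or above the median level were named, and of lists of other cells the rule took the 3 with the highest mean, of which those beside a result are given. The 3 genes most alike in pattern were named for each factor at or above the median level, leaving out clone names.

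Alternatives were quantile normalization, median centring, a filter at the median level, the replicate number as a block, an offset of 64, a trended robust prior, array weights, the mean of all probe sets, each other probe set, and leaving out each array. Leaving out both replicate 1 arrays and the pan-neuronal reference were added after seeing the data. No batch is given in the labels. One further Hox gene is not reported here.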

Additional observations from a re-analysis of the deposited data

How the results depend on the processing

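limma called 0 probe sets of the whole array under all 16 alternatives (smallest adjusted p 0.228), with 801 to 2375 at an unadjusted p under 0.05, the 801 counting genes. Probe sets were kept apart in 15 of these, where 0 of the 20 (14 were tested with the filter) were called and 0 had an unadjusted p under 0.05. Of 154 values of the 9 genes under alternatives 148 kept their direction, all on the same side of the threshold. The 6 that turned were small or disagreed between probe sets. Isl1 was -0.0052 without both replicate 1 arrays, Tbx3 was 0.10 without control array 2 and 0.03 without swap array 3, and Tbx20 was -0.067 as the mean of its probe sets and -0.0365 and -0.35 in its other probe sets. The cause was not tested. With 1 array left out the gene-level difference ranged from -0.66 to -0.27 for Phox2a, 0.28 to 0.48 for Nkx2-2, -0.74 to -0.03 for Nkx2-9, 0.06 to 0.42 for Nkx6-1, 0.03 to 0.18 for Isl1, 0.03 to 0.27 for Tbx20, 0.04 to 0.25 for Ebf1, -0.33 to -0.03 for Tbx2 and -0.29 to 0.10 for Tbx3. The filter at the median level gave no value for Nkx2-9.

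With the replicate number as a block limma called 0 probe sets (smallest adjusted p 0.940). Deviations of same-numbered arrays from their group means correlated at 0.23, 0.03 and 0.22 across probe sets. Differently numbered arrays ranged from -0.29 to 0.12, so the arrays numbered 1 and 3 were each closest to their own number. Whether the numbers pair the arrays was not settled, and the main fit followed the series design in taking replicates as independent. Control array 2 was closer to swap array 3 (0.12). The number of arrays limits every value, and signal below the median level limits Nkx2-9 and 5 further probe sets. Tbx2, at a mean log2 intensity of 7.32, was the lowest of the probe sets above that level.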

Other observations

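The difference between Phox2a and each of the brighter motor neuron factors was followed within arrays, a comparison chosen after the values were seen and therefore given with no test. Only its change between arrays has a meaning, since probe sets have their own brightness. The log2 signal of Isl1 minus that of Phox2a was 4.51, 3.98 and 4.81 in the control arrays and 4.93, 5.04 and 5.22 in the swap arrays. For Tbx20 minus Phox2a it was 4.35, 3.53 and 4.53 in the control and 4.82, 4.74 and 4.91 in the swap arrays, and for Ebf1 minus Phox2a 4.81, 3.78 and 4.78 against 4.94, 5.17 and 5.20. The mean shifts were 0.63, 0.69 and 0.65. Control array 2, where Phox2a was highest, was low in all 3 pairs, and without it the shifts were 0.41, 0.38 and 0.31. The 3 pairs share the Phox2a values, so they are not separate observations.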
